A study of Homo sapiens with 24 samples.

Results

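Pre-mRNA splicing is carried out by the spliceosome, and the genes described here encode 3 protein families that form it or act on its substrates. SR proteins bind exonic enhancers through an RNA recognition motif and recruit the splicing machinery through an arginine- and serine-rich domain. The hnRNP proteins coat nascent transcripts, and many of them oppose SR proteins at splice sites or act in mRNA export and stability. The SNRP genes encode the Sm proteins, which form the ring on the spliceosomal small nuclear RNAs, together with several U1- and U2-specific proteins. Most of these genes are expressed in every cell type.

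The members were taken by symbol from the protein-coding genes of GENCODE on hg19, chromosomes 1 to 22 and X. Symbols starting with SRSF and a digit gave 12 genes, HNRNP gave 25 and SNRP gave 12. These 49 genes were set against all 20098 protein-coding genes, and 104 other spliceosome genes served as the nearest comparison. HNRNPUL2 and the readthrough record HNRNPUL2-BSCL2 share a promoter, so they are not independent entries.

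The cells were MCF-10A-ER-Src, a nontransformed human mammary epithelial line that carries v-Src fused to the ligand-binding domain of the estrogen receptor. Tamoxifen activates the fusion and transforms the cells. All libraries used here came from this line, stably expressing either S100A8-Flag or S100A9-Flag from a retroviral vector under hygromycin selection, so the tagged protein was present in addition to any endogenous protein. S100A8 and S100A9 are small calcium-binding proteins, secreted as inflammatory cytokines and also found in the nucleus. Cells received 1 μM 4-hydroxytamoxifen (TAM) or ethanol vehicle (EtOH) for 24 h, and chromatin was immunoprecipitated with an anti-Flag antibody. Peak lists were used from 2 S100A8-Flag EtOH, 3 S100A8-Flag TAM, 3 S100A9-Flag EtOH and 3 S100A9-Flag TAM libraries, which the labels call biological replicates.

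The lists contain peaks only, so read depth was unknown and a gene without a peak has no value. A call means a peak with −log10 q of at least 7, where q is the peak caller's false discovery rate. The summit of a promoter call lies no more than 1500 bp before or 250 bp past a transcription start site (TSS). A gene-body call has its summit elsewhere in the gene. EtOH lists held 1853 to 4609 peaks at this threshold and TAM lists 21518 to 40735. Promoters of 8 of 9 basal mammary epithelial marker genes were called in at least 1 TAM library, beside 60.6% of all protein-coding genes. The basal marker TP63 was called in no library. In at least 1 EtOH library 4 of the 9 were called, beside 29.0% of all genes. Promoters of 0 of 10 marker genes of other lineages were called in any of the 11 libraries, while 38.9% of all genes had no call.

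The 2 promoters of each family that were called in most libraries are shown, with ties broken by the mean percentile of fold enrichment. Each window is 101 bases of hg19 centred on the strongest summit and printed on the gene's strand. Capitals mark matches to the ETS motif CGGAAG or to the NF-Y motif CCAAT on either strand. The other motifs searched, listed further on, have no match in these windows. The SRSF4 window is chr1:29508499-29508599 (minus strand), with its summit at −137 bp from a TSS, where negative positions are upstream. SRSF11 is shown at chr1:70671278-70671378 (plus strand, −37 bp), HNRNPD at chr4:83295616-83295716 (minus strand, −10 bp) and HNRNPLL at chr2:38830085-38830185 (minus strand, 36 bp). SNRPA1 is shown at chr15:101835471-101835571 (minus strand, −68 bp) and SNRPB2 at chr20:16710591-16710691 (plus strand, −30 bp).
SRSF4: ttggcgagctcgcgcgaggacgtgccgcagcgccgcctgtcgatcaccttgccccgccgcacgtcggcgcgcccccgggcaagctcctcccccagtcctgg
SRSF11: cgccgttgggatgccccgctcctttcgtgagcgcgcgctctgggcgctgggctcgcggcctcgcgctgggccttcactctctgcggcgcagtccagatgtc
HNRNPD: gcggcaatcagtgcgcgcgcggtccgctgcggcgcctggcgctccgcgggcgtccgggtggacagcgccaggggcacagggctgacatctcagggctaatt
HNRNPLL: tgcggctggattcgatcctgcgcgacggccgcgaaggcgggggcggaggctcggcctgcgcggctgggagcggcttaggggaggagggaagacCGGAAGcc
SNRPA1: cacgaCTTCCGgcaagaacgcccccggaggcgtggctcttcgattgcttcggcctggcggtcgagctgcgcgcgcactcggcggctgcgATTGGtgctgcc
SNRPB2: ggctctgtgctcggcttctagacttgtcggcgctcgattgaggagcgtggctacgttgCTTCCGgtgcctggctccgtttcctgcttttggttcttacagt
The HNRNPLL, SNRPA1 and SNRPB2 windows hold an ETS match, SNRPA1 also holds an NF-Y match, and the SRSF4, SRSF11 and HNRNPD windows hold neither.

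Promoters of most of these genes held S100A8-Flag and S100A9-Flag peaks in TAM-treated cells, called over chromatin input and not against an untagged control. In S100A8-Flag TAM, 35 of 49 members (71.4%) were called at the promoter in at least 2 replicates, against 36.7% of all protein-coding genes. In S100A9-Flag TAM, 38 members (77.6%) were called by the same criterion, against 43% of all genes. EtOH counts were lower, at 9 members (18.4%) for S100A8-Flag against 4.61% of all genes, and 5 members (10.2%) for S100A9-Flag against 5.69%. These EtOH counts moved with the criterion, from 9 to 32 with every listed peak and to 2 at −log10 q of at least 10, and from 5 to 33 and 2. The 5 members also became 2 without S100A9-Flag EtOH replicate 2 and 1 without replicate 3. The other 104 spliceosome genes gave 14 in S100A8-Flag EtOH, 78 in S100A8-Flag TAM, 13 in S100A9-Flag EtOH and 84 in S100A9-Flag TAM. Their shares of 75% and 80.8% in TAM lie close to those of the members, so a high share was not particular to the SR protein, hnRNP and snRNP genes.

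Every TAM library called more members than any EtOH library. S100A8-Flag EtOH libraries called 15 and 18 members, and S100A8-Flag TAM libraries called 37, 31 and 33. For S100A9-Flag the EtOH libraries called 8, 5 and 11 members and the TAM libraries 33, 37 and 40. The member share averaged 23.3% ± 10.7 over the 5 EtOH libraries and 71.8% ± 6.9 over the 6 TAM libraries (mean ± SD), while all protein-coding genes averaged 10.1% ± 2.5 and 39.0% ± 5.4. Expressed as a ratio to all genes, the member share was 2.21 ± 0.61 in EtOH and 1.85 ± 0.13 in TAM. The ranges of this ratio overlapped, from 1.66 to 3.02 in EtOH and from 1.67 to 2.02 in TAM.

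**Figure D1:**
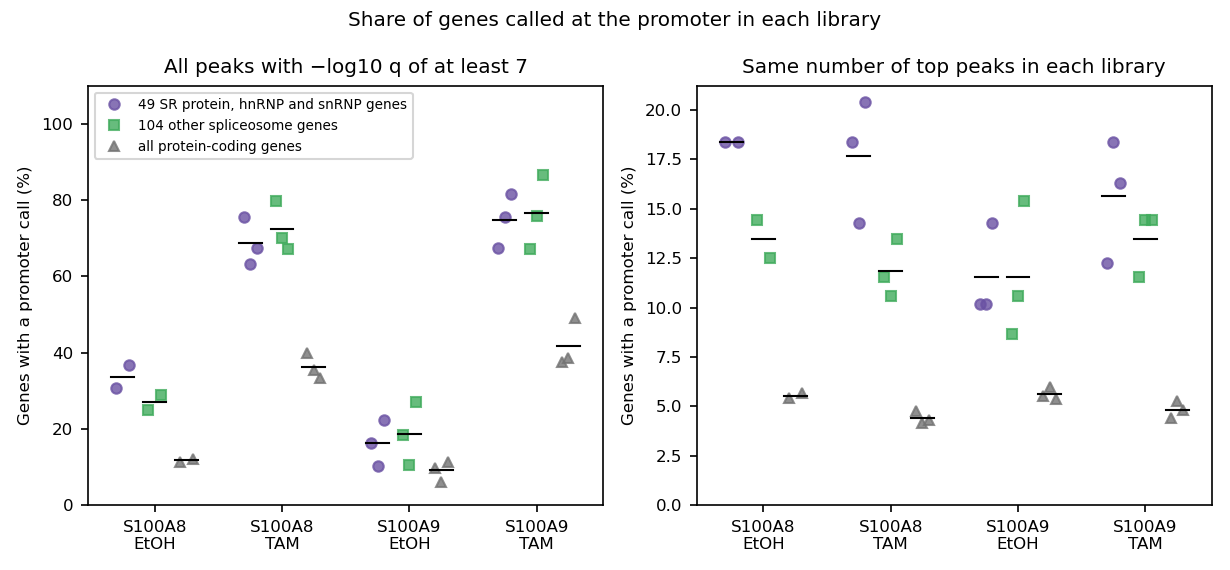
Share of genes with a promoter call (percent, y axis) in each library, for the 49 members, 104 other spliceosome genes and all protein-coding genes, with 1 point per library and a bar at the group mean. On the left, with every peak of −log10 q of at least 7, TAM member shares lie between 63.3% and 81.6% and EtOH shares between 10.2% and 36.7%. On the right, with the 1853 peaks of lowest q in each library, EtOH and TAM member shares overlap.

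The number of listed peaks moved with treatment, and the member counts moved with it. When each library was cut to its 1853 peaks of lowest q, EtOH libraries called 9, 9, 5, 5 and 7 members and TAM libraries called 9, 7, 10, 6, 9 and 8. The difference between treatments was thus not seen at an equal number of peaks. This cut removes any gain in the number of peaks by construction, so it cannot tell whether binding rose. The paper reports higher nuclear levels of the tagged proteins in TAM. Whether these levels, depth or enrichment efficiency have a part in the longer TAM lists was not tested. With 1853 peaks each, the member share was 1.71 to 4.74 times that of all genes in each of the 11 libraries. This ratio averaged 2.57 ± 0.78 in EtOH and 3.62 ± 0.65 in TAM, the reverse of the order found with all called peaks. Its ranges overlapped, from 1.71 to 3.40 in EtOH and from 2.79 to 4.74 in TAM, and rest on 5 to 10 members per library. The share of all genes at this cut averaged 5.59% in EtOH and 4.61% in TAM.

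Counts were also taken by family. Among SR protein genes, 3 of 12 were called in at least 2 replicates in S100A8-Flag EtOH, 10 in S100A8-Flag TAM, 0 in S100A9-Flag EtOH and 8 in S100A9-Flag TAM. The hnRNP genes gave 2, 16, 3 and 19 of 25 in the same order. The snRNP genes gave 4, 9, 2 and 11 of 12, the highest share in 3 of the 4 conditions. In S100A9-Flag EtOH that rank rests on 2 snRNP genes. The shares over all protein-coding genes were 4.61%, 36.7%, 5.69% and 43% in the same order. Differences between families were not tested, since members of a family are not replicates.

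A core of 22 members (44.9%) was called in all 6 TAM libraries, compared with 13.9% of all protein-coding genes. It comprised 7 SR protein, 8 hnRNP and 7 snRNP genes. No member was called in all 5 EtOH libraries, a pattern held by 0.577% of all genes. Calls in TAM libraries only were found at 13 members (26.5%), below the 32.1% of all genes and the 40.4% of other spliceosome genes. In TAM libraries the median member promoter peak had a fold enrichment above 71.0% to 79.4% of the library's called peaks, while the median over all called promoters lay at 58.7% to 63.3%. In EtOH libraries, with 5 to 18 members called, the same medians ran from 41.9% to 87.3% for members and from 50.97% to 56.4% for all genes.

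**Figure D2:**
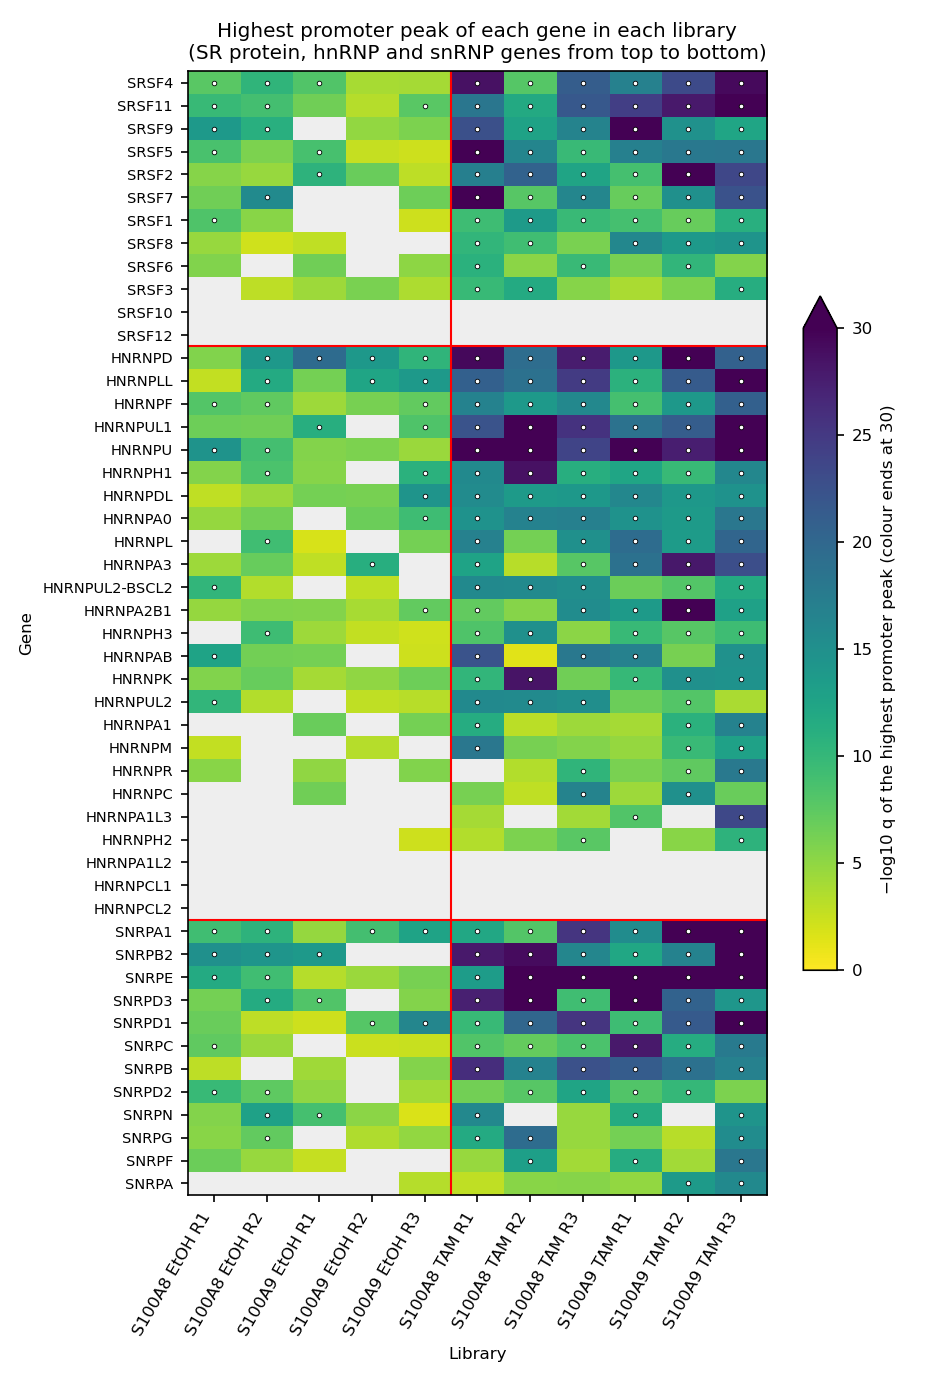
Highest −log10 q of a listed promoter peak (colour, ending at 30) for each of the 49 genes (rows, by family) in each of the 11 libraries (columns, EtOH left and TAM right of the red line). Grey cells have no listed peak and dots mark calls of −log10 q of at least 7. Most rows are darker on the TAM side, and SRSF10, SRSF12, HNRNPA1L2, HNRNPCL1 and HNRNPCL2 are grey throughout.

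Among SR proteins, SRSF4 and SRSF11 were each called in 9 of 11 libraries. At the SRSF4 promoter −log10 q was 7.73 and 10.4 in S100A8-Flag EtOH, 8.19, 3.95 and 4.07 in S100A9-Flag EtOH, 28.7, 7.96 and 21.1 in S100A8-Flag TAM, and 16.8, 23.2 and 29.2 in S100A9-Flag TAM. The groups overlapped because the second S100A8-Flag TAM library lay within the EtOH range. SRSF11, whose product associates with the 3′ splice site factor U2AF, gave 9.73 and 8.92, then 6.46, 3.36 and 7.63 in EtOH for the 2 proteins in the same order, and 18.2, 11.8 and 21.8, then 24.4, 27.9 and 48.6 in TAM. All 6 TAM values exceeded all 5 EtOH values there, and the summit also falls in the promoter of the divergent gene LRRC40. SRSF1, the prototype SR protein that commits splice sites to use, reached 7.02 to 13.6 in TAM and 0 to 8.31 in EtOH.

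HNRNPD, which encodes the AU-rich element binding protein AUF1, was the hnRNP gene called most often, in 10 libraries. Its −log10 q was 5.71 and 14.1 in S100A8-Flag EtOH and 19.6, 14.0 and 10.3 in S100A9-Flag EtOH. TAM gave 29.4, 19.3 and 27.8 for S100A8-Flag and 14.0, 30.3 and 20.7 for S100A9-Flag. HNRNPD was thus called in all 3 S100A9-Flag EtOH libraries, and its EtOH and TAM ranges overlapped. At HNRNPLL, a regulator of CD45 splicing in lymphocytes, −log10 q ran between 2.74 and 13.9 in EtOH libraries and between 10.7 and 35.0 in TAM libraries, with 9 libraries called. HNRNPF, which binds G-rich RNA, was also called in 9 libraries.

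At HNRNPU and HNRNPUL1 the treatments did not overlap. HNRNPU (chr1:245003940-245027862, minus strand) encodes scaffold attachment factor A, which ties RNA to chromatin. Its promoter gave 14.6 and 8.92 in S100A8-Flag EtOH, 5.52, 5.92 and 4.46 in S100A9-Flag EtOH, 38.2, 31.6 and 23.8 in S100A8-Flag TAM and 48.5, 27.5 and 60.5 in S100A9-Flag TAM. The lowest TAM value was above the highest EtOH value, and S100A8-Flag was above S100A9-Flag in EtOH. HNRNPUL1 had 0 to 11.2 in EtOH and 18.7 to 36.5 in TAM.

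Among snRNP genes, SNRPA1 (the U2-specific A′ protein) was called in 10 libraries, SNRPB2 (the U2-specific B″ protein) in 9 and SNRPE (Sm E) in 8. SNRPE gave 11.7 and 9.14 in S100A8-Flag EtOH, 3.40, 4.53 and 6.11 in S100A9-Flag EtOH, 13.4, 52.9 and 42.0 in S100A8-Flag TAM and 37.9, 32.7 and 59.2 in S100A9-Flag TAM. No TAM library overlapped an EtOH library at this gene. SNRPB (chr20:2442280-2451499, minus strand), the gene of Sm B and B′, was the only member called in every TAM and in no EtOH library, a pattern held by 569 of the 20098 genes. Its values were 2.98, 0, 4.30, 0 and 5.59 in EtOH and 26.1, 16.7, 22.6, 21.2, 18.8 and 16.8 in TAM, where 0 means that no peak was listed. At SNRPA1 the ranges overlapped, at 4.78 to 12.6 in EtOH and 8.06 to 47.5 in TAM.

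The other SR protein genes ranged widely. SRSF5 had −log10 q of 2.24 to 8.75 in EtOH and 9.70 to 40.1 in TAM, without overlap. SRSF9 had 0 to 13.8 in EtOH and 12.4 to 34.6 in TAM. For SRSF2, an SR protein that stays in the nucleus, the ranges were 2.99 to 10.6 and 8.90 to 30.3, and for SRSF7, a shuttling SR protein, 0 to 15.6 and 7.001 to 35.9. SRSF8, a retrogene copy of SRSF2, was called in 0 EtOH and 5 TAM libraries, with 0 to 4.67 against 6.001 to 16.1. SRSF3 and SRSF6 were each called in 3 TAM libraries and in no EtOH library.

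Some genes of abundant core hnRNP proteins were called in few libraries. HNRNPA1, whose product binds splicing silencers, gave 11.5, 3.06 and 4.45 in S100A8-Flag TAM and 4.00, 10.9 and 16.7 in S100A9-Flag TAM, with 0 to 6.89 in EtOH. HNRNPC, which measures RNA length and binds uridine tracts, was called in 2 libraries and HNRNPM in 3. HNRNPA2B1 was called in 6 libraries, and its 49.6 in S100A9-Flag TAM replicate 2 stood above the 5.45 to 15.4 of the other TAM libraries. HNRNPK, which binds C-rich sequence, had 4.04 to 6.92 in EtOH and 6.51 to 28.4 in TAM, and HNRNPL, which binds CA repeats, had 0 to 9.15 and 6.24 to 20.2. HNRNPA0 had 0 to 9.27 in EtOH and 13.7 to 18.1 in TAM, without overlap. HNRNPDL, the neighbour of HNRNPD, was steady in TAM at 13.7 to 16.1 and reached 14.4 in 1 EtOH library.

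Genes of the Sm ring differed from each other. SNRPD1 and SNRPD3 (Sm D3) were called in 8 libraries each, SNRPD2 in 6, SNRPG (Sm G) in 4 and SNRPF (Sm F) in 3. SNRPD3 had 0 to 11.6 in EtOH and 9.24 to 35.0 in TAM. At SNRPF the values were 6.78 and 4.66 in S100A8-Flag EtOH, 2.60, 0 and 0 in S100A9-Flag EtOH, 4.59, 13.04 and 4.13 in S100A8-Flag TAM and 11.4, 4.13 and 18.1 in S100A9-Flag TAM, so its groups overlapped. Of the U1-specific proteins, SNRPC (U1 C) was called in all 6 TAM libraries at 7.04 to 27.9 and in 1 EtOH library, whereas SNRPA (U1 A) was called in 2 S100A9-Flag TAM libraries only, at 13.7 and 15.8. SNRPN was called in 2 EtOH and 3 TAM libraries, and its promoter values ran from 1.72 to 12.9 and from 0 to 16.0.

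The treatment comparison was tested gene by gene with an exact two-sided permutation of treatment labels within each protein, whose smallest possible p is 0.01, and Benjamini-Hochberg adjustment over all genes called in at least 2 libraries, which 44 of the 49 members were. With calls as the measure, 0 of 10794 genes and 0 of 44 members passed an adjusted p of 0.05, and the lowest adjusted p was 0.19. At an unadjusted exact p under 0.05, 9 members were called more often in TAM and 0 less often, namely SRSF1, SRSF2, SRSF7, SRSF8, HNRNPA0, HNRNPDL, HNRNPK, SNRPB and SNRPC. These are 9 of 44, beside 21% of all genes tested. The 104 other spliceosome genes gave 25 of 99 tested, all higher in TAM, and 0 passed the adjustment.

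Calls discard how strong a peak is, and 39 member values lay within 1 unit of −log10 q below the threshold and 21 within 1 unit above it, of 539 member and library pairs. The nearest values inside were 7.001 for SRSF7 in S100A9-Flag TAM replicate 1 and 7.02 for SRSF1 in S100A9-Flag TAM replicate 2. Just outside were HNRNPA3 and HNRNPK, each at 6.92 in S100A8-Flag EtOH replicate 2. A score, the highest −log10 q of any listed promoter peak in each library, was therefore tested in the same way, a choice made after the data had been seen.

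Libraries without a listed peak entered this score and its means as 0, and genes with a listed peak in at least 2 libraries were tested. With that score 14 of 44 members rose in TAM at an adjusted p of 0.0421 in the exact permutation test, beside 23.8% of 13389 genes. They were SRSF1, SRSF5, SRSF8 and SRSF11, the hnRNP genes HNRNPA0, HNRNPF, HNRNPM, HNRNPU, HNRNPUL1, HNRNPUL2 and HNRNPUL2-BSCL2, and the snRNP genes SNRPA, SNRPB and SNRPE. All 14 were tied at the smallest possible exact permutation p of 0.01 with 3183 of the 13389 genes, so the adjusted p does not rank them. The highest −log10 q of called peaks alone gave 0 members, with a lowest adjusted p of 0.0638 in the same exact permutation test. With every listed peak, mean −log10 q rose from 7.89 ± 4.11 (SD, n = 5) to 38.4 ± 13.9 (SD, n = 6) at HNRNPU, from 6.97 ± 3.40 to 39.7 ± 16.2 at SNRPE, from 2.57 ± 2.52 to 20.4 ± 3.7 at SNRPB, where 2 of 5 EtOH libraries entered as 0, and from 3.18 ± 3.61 to 9.95 ± 2.23 at SRSF1. In 10 members every TAM library exceeded every EtOH library, beside 17.5% of genes tested, and in 0 members was the order the other way round. Among the other spliceosome genes 25 of 104 passed. The member share thus lay near or somewhat above the background share in each of these counts. A −log10 q grows with depth and with the number of enriched reads. Depth was unknown, and its part in the rise of this score was not tested.

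**Figure D3:**
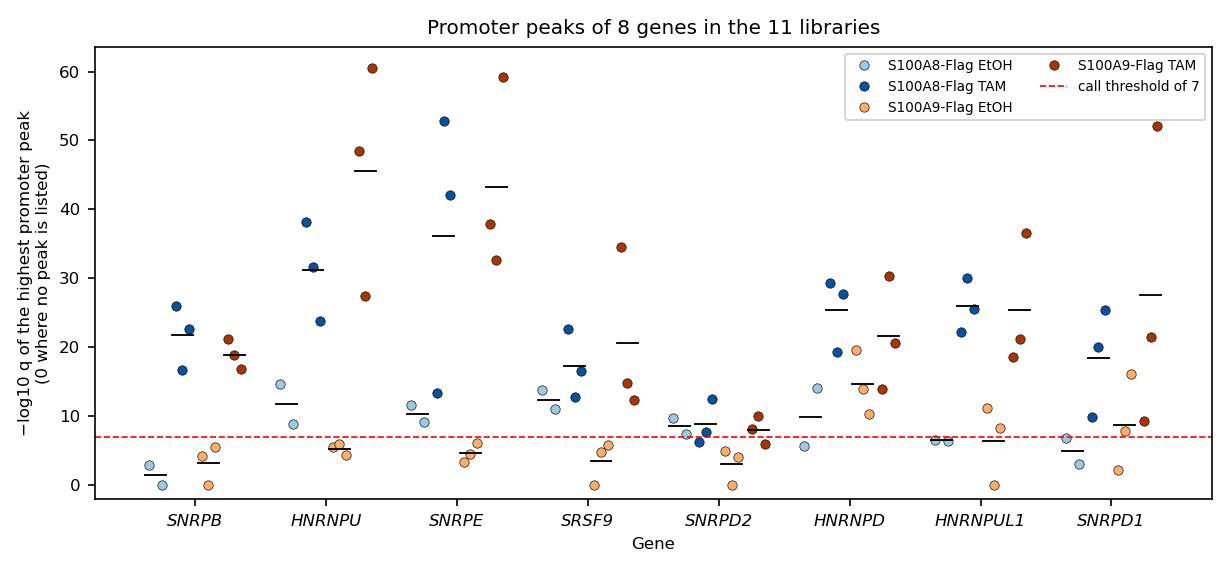
The −log10 q of the highest listed promoter peak (y axis, 0 where no peak is listed) of 8 genes in each of the 11 libraries, with 1 point per library, a bar at each group mean and a dashed line at the call threshold of 7. SNRPB, HNRNPU and SNRPE have all TAM points above all EtOH points. In EtOH the 2 S100A8-Flag points of SRSF9, HNRNPU, SNRPE and SNRPD2 lie above the 3 S100A9-Flag points.

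S100A8 and S100A9 form a heterodimer, and their promoter peaks were compared within each treatment. In TAM no member differed between the proteins by 3 called libraries. In EtOH 4 members were called in both S100A8-Flag and in no S100A9-Flag library, namely SRSF9, HNRNPU, SNRPE and SNRPD2 (Sm D2), beside 1.22% of all genes. SRSF9 gave 13.8 and 11.04 in S100A8-Flag EtOH against 0, 4.87 and 5.87 in S100A9-Flag EtOH, and SNRPD2 gave 9.73 and 7.47 against 4.99, 0 and 4.13. In the other direction HNRNPD, HNRNPUL1 and SNRPD1 (Sm D1) were called in at least 2 more S100A9-Flag than S100A8-Flag EtOH libraries, beside 2.07% of all genes. SNRPD1 gave 6.85 and 3.04 in S100A8-Flag EtOH and 2.28, 7.89 and 16.2 in S100A9-Flag EtOH, so these groups overlapped.

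At SRSF9, HNRNPU and SNRPE, called in every TAM library, the exact permutation p was 0.2, the smallest that a difference between 2 and 3 EtOH libraries alone allows, so the test could not call them. SNRPD2 had an exact p of 0.16. Permuting the protein labels within treatment gave 0 of 10794 genes at an adjusted p of 0.05, and 0 of 44 members at an unadjusted exact p under 0.05 beside 0.13% of genes. With the score, 0 genes passed the adjustment and 3 members had an unadjusted exact p under 0.05, beside 2.8% of genes, all 3 higher in S100A8-Flag. They were SRSF1 and the pair HNRNPUL2 and HNRNPUL2-BSCL2, which count as 1 promoter. HNRNPUL2 gave 15.7, 15.7 and 15.2 in S100A8-Flag TAM and 6.72, 8.08 and 3.75 in S100A9-Flag TAM, groups that did not overlap (exact permutation test, adjusted p = 1). At member level, the 2 EtOH lists of nearly equal length differed, with 18 members called among 4609 peaks in S100A8-Flag EtOH replicate 2 and 11 among 4596 peaks in S100A9-Flag EtOH replicate 3. Over all genes the same lists called 2445 and 2292 promoters. With 1853 peaks each, the 2 S100A8-Flag EtOH libraries called 9 members each and the 3 S100A9-Flag EtOH libraries 5, 5 and 7.

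A group of 5 members had no listed promoter peak in any library, even below the threshold. HNRNPA1L2, HNRNPCL1 and HNRNPCL2 are copies of HNRNPA1 and HNRNPC. Whether reads from these promoters could be placed uniquely was not tested. SRSF12 had listed gene-body peaks in 7 libraries, with the highest one 271 to 594 bp past its TSS in 6 of them, just outside the promoter window. Gene-body calls were made there in 2 libraries, at 533 and 5997 bp. For SRSF10, a regulator of splicing in mitosis and stress, the nearest listed summit lay 58245 bp away. The same empty stretch contains the neighbouring gene PNRC2, so no absence of binding is read from it. Among all protein-coding genes, 38.9% had no promoter call in any library.

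Summits lay close to the start sites. The strongest promoter summit of the 44 called members had a median distance of 58.5 bp to its closest TSS (interquartile range 21.5 to 118 bp), against 82 bp over 10794 genes, and 28 of 44 (63.6%) were upstream compared with 76.1%. Within single libraries the member median ran from 33 to 115 bp, a range that includes 82 bp. Of the snRNP summits 11 of 12 lay within 250 bp, beside 79.9% over the 10794 genes. The snRNP median was 57 bp upstream, close to the 59 bp upstream over the 10794 genes. Median positions were 16.5 bp upstream for SR protein genes and 7 bp upstream for hnRNP genes. The farthest were HNRNPA1 at −507 bp, HNRNPH3 at −502 bp and SNRPD2 at −483 bp, and the last of these falls in the promoter of QPCTL as well.

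**Figure D4:**
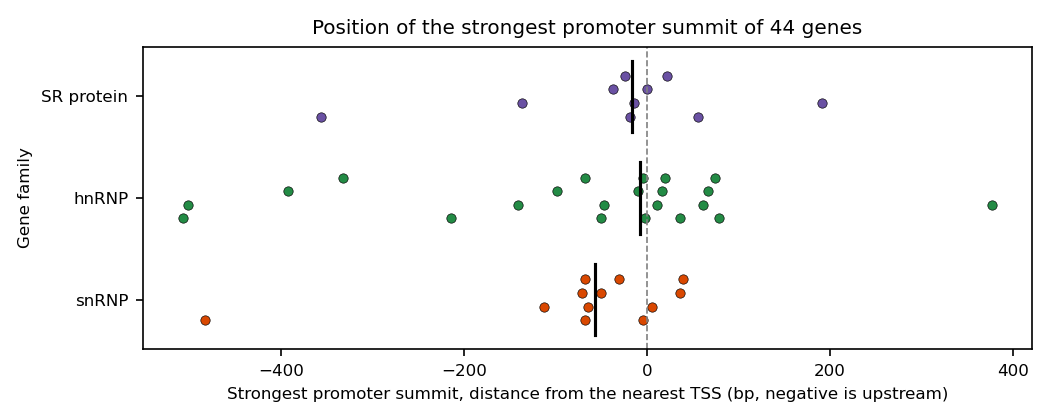
Distance of the strongest promoter summit from the nearest TSS (bp, x axis, negative upstream) for the 44 called members by family (y axis), with 1 point per gene and a bar at the family median. The snRNP median is 57 bp upstream, close to the 59 bp upstream over all genes called, and hnRNP genes spread from −507 bp to 377 bp.

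Many of these summits belonged to more than 1 gene. In 16 of 44 members (36.4%) the strongest summit also lay in the promoter window of another protein-coding gene, against 25.9% of all genes called. The pairs included SRSF7 with GEMIN6, SRSF2 with MFSD11, HNRNPA2B1 with CBX3, HNRNPK with RMI1 and SNRPN with SNURF. A peak there cannot be assigned to either gene of the pair. GEMIN6 belongs to the SMN complex, which loads the Sm ring.

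The sequence around the summits was rich in CpG. Over 201 bp the 44 members had a median GC content of 65.2% and a CpG ratio of observed to expected of 0.922, against 67.2% and 0.866 for all genes called. ETS matches (CGGAAG) were present in 16 of 44 windows (36.4%), against 28.8% of 10794, and NF-Y matches (CCAAT) in 15 (34.1%), against 20.01%. NF-Y matches lay mostly in the outer parts of the windows, since within 50 bp of the summit they were present in 3 members (6.8%) and 9.9% of all genes. KLF/SP1 matches (CCCCGCCC) occurred in 9 members (20.5%), against 24.6%. NRF1 (GCGCANGCG) was matched in 2 members against 9.4% of all genes, and ZBTB33 (CTCGCGAG) in 2 against 1.4%. The AP-1 motif (TGACTCA) was present only in the SNRPD3 window, against 5.0% of all genes. The CREB motif (TGACGTCA), the THAP11 motif (TACAANTCC) and the YY1 motif (AAGATGGCG) matched in 0 members, against 2.7%, 2.2% and 3.3% of all genes. Both strands were searched for each motif, and a match describes letters only.

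Gene bodies gave fewer calls than promoters. In at least 2 replicates, 1 member was called in the gene body in S100A8-Flag EtOH (2.42% of all genes), 10 in S100A8-Flag TAM (27.3%), 1 in S100A9-Flag EtOH (2.73%) and 10 in S100A9-Flag TAM (31%). The 10 of 49 (20.4%) in each TAM condition were thus below the share over all genes. Members are short, with a median length of 14828 bp against 27256.5 bp for all protein-coding genes. Per megabase of gene body, members had 1.51 ± 0.84 peaks over the 5 EtOH libraries and 14.9 ± 3.5 over the 6 TAM libraries (mean ± SD), against 0.925 ± 0.315 and 8.35 ± 2.31 for all genes. The EtOH values rest on 1 and 1 member peaks for S100A8-Flag and 3, 2 and 1 for S100A9-Flag. Members, at 0.942, lay below all genes in S100A8-Flag EtOH replicates 1 and 2 and S100A9-Flag EtOH replicate 3 (1.04, 1.11 and 1.19). They lay above all genes in S100A9-Flag EtOH replicates 1 and 2. Some member body sites lay just past the promoter window, such as those of SNRPG at 295 bp and HNRNPDL at 324 bp from a TSS. Of 54 member body sites, 9 had the summit in another gene's promoter window. The part of such sites in the member density was not tested.

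**Figure D5:**
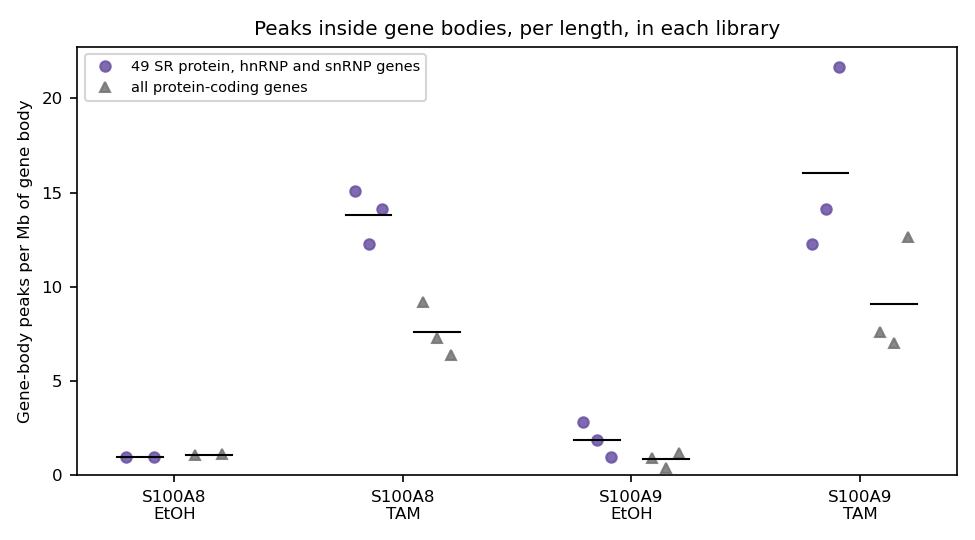
Gene-body peaks of −log10 q of at least 7 per megabase of gene body (y axis) in each library, for the 49 members and for all protein-coding genes, with 1 point per library and a bar at the group mean. TAM member densities lie between 12.2 and 21.7 per megabase and TAM densities over all genes between 6.39 and 12.6.

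The body peaks fell into 54 member sites, of which 23 were called in at least 2 libraries. Those 23 summits lay in introns (16), exons of noncoding transcripts (4) and coding exons (3), and 7 of them were in the promoter window of another gene. HNRNPA0 had the site called in most libraries, at chr5:137088736-137089864 in its coding exon, 972 bp from the TSS. Its highest gene-body values were 4.44 and 0 in S100A8-Flag EtOH, 7.52, 0 and 0 in S100A9-Flag EtOH, 7.11, 7.10 and 7.51 in S100A8-Flag TAM and 11.1, 8.00 and 17.3 in S100A9-Flag TAM. All 6 TAM libraries and 1 EtOH library passed the threshold, and the S100A8-Flag values lay just above it. HNRNPH1, which binds G runs, was called at chr5:179049498-179050305, an intronic site 345 bp from a TSS, in 4 TAM and 2 EtOH libraries.

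HNRNPA1L3, a paralog of HNRNPA1 whose annotated record spans 93697 bp, held body calls in all 6 TAM and no EtOH libraries, with intronic sites at chr16:51670771-51671128 and chr16:51611479-51611892. The highest values over the record ran from 11.2 to 17.8 in TAM and from 0 to 6.09 in EtOH. SNRPN, the imprinted gene of Sm N, held body calls in both S100A8-Flag EtOH, all 3 S100A8-Flag TAM and 1 S100A9-Flag TAM library. These fell at 3 intronic sites of its 155087-bp record. The highest values anywhere in that record were, for S100A8-Flag, 7.05 and 8.03 in EtOH and 18.7, 13.4 and 7.83 in TAM, and, for S100A9-Flag, 3.79, 0 and 4.77 in EtOH and 3.99, 8.08 and 5.44 in TAM. SRSF2 was called in the body in 5 libraries, at a site that is also the promoter of MFSD11.

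In the exact permutation tests of gene-body calls, 0 of 8491 genes and 0 of 21 members passed an adjusted p of 0.05 for treatment, and 3 members (HNRNPA0, HNRNPA1L3 and HNRNPUL2-BSCL2) had an unadjusted p under 0.05, beside 25.9% of genes. The called body sites of the readthrough record HNRNPUL2-BSCL2 all lay inside BSCL2 or in the promoter window of TTC9C. They cannot be assigned to an hnRNP gene alone. With the score, 6 of 39 members rose in TAM at an adjusted p of 0.0465 in the exact permutation test, beside 21.5% of 14603 genes. These were SRSF4, SRSF5, HNRNPA0, HNRNPA1L3, HNRNPC and HNRNPUL2-BSCL2. All 6 were tied at the smallest possible exact permutation p of 0.01, as part of 3143 such genes. The score of called peaks alone gave 0 members, at a lowest adjusted p of 0.052 in the same test. Between proteins 0 genes passed the adjustment. SNRPN had an unadjusted exact p of 0.04 in favour of S100A8-Flag, beside 0.106% of genes, with an adjusted p of 1.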

How the data were processed

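Chromatin immunoprecipitation sequencing with an anti-Flag antibody was analysed for 11 libraries, and the remaining 13 of 24 samples (RNA polymerase II and input libraries) were not used here. The authors aligned reads to hg19 with Bowtie2 and called peaks with MACS2 for each library; versions were not given in the sources used here. Each deposited list gives a peak's score, its fold enrichment (a ratio over local background), the −log10 p-value, the −log10 q-value and the summit, down to a q-value of 0.05. No counts were used, so depth is unknown and no interval for counting error is given.

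Gene models came from GENCODE 44 lifted to hg19. For each gene and library the highest −log10 q in the promoter or gene body was taken, and values of at least 7 were calls. Treatment labels were permuted within protein and protein labels within treatment (200 arrangements each), with Benjamini-Hochberg adjustment over genes called in at least 2 libraries; the script was tested on simulated data. The added score used every listed peak, with 0 where none was listed, over genes with a listed peak in at least 2 libraries (13389 promoters, 14603 gene bodies). Within S100A8-Flag alone the smallest possible p is 0.2 and within S100A9-Flag alone 0.1, so no test within a protein was made. Same-numbered EtOH and TAM libraries did not deviate together (correlations of −0.017 to 0.0121 over 5 pairs), so replicate numbers were not used as pairs. Named genes were the 10 members called in most libraries, those called in none, those past a threshold, those differing between proteins by 3 libraries in TAM or 2 in EtOH, and 5 members with most gene-body calls, and others are given as examples. The members and gene lists were chosen with earlier results of these data known. Python 3.11.15, NumPy 2.4.6 and SciPy 1.17.1 were used.

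The 5 lists of related genes, 104 genes in all, gave the following promoter calls in at least 2 replicates, for S100A8-Flag EtOH, S100A8-Flag TAM, S100A9-Flag EtOH and S100A9-Flag TAM. The snRNP-specific proteins gave 4, 23, 4 and 29 of 34, and splice-site recognition factors and other regulators gave 4, 27, 4 and 28 of 31. The PRP19 complex and helicases gave 3, 12, 1 and 10 of 18, SR protein kinases gave 0, 7, 2 and 6 of 8, and the SMN complex with Sm-core assembly gave 3, 9, 2 and 11 of 13.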

Additional observations from a re-analysis of the deposited data

Results flagged for a closer look

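Across 46 groups of library values, 3 held a library set apart from the others by the gap test of Dixon, at a nominal rate of 5% of groups. That rate is only a rough guide here, since the groups share genes and libraries and hold tied values. In gene bodies, S100A9-Flag TAM replicate 1 called 16.7% of snRNP genes, and the other 5 TAM libraries called 8.33% each, a difference of 1 gene. The member share of gene-body calls over that of all genes was 1.11 in S100A8-Flag TAM replicate 3 and 0.711 to 0.830 in the other TAM libraries. With every listed promoter peak counted, S100A9-Flag EtOH replicate 2, which has the shortest list, held 52% of hnRNP genes, and the other EtOH libraries held 64% to 68%.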

How the results depend on the processing

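Calls for either contrast stayed at 0 members past an adjusted p of 0.05 with every listed peak, with −log10 q of at least 10, with equal numbers of top peaks, with the gene's 5′ end as the only TSS, with any overlap of the peak, with the highest −log10 q of called peaks as the measure, with no filter on genes and, for promoters, with the nearest TSS only. Leaving out each library in turn also gave 0 to 0 members. In the treatment comparison this raised the smallest exact permutation p from 0.01 to between 0.0167 and 0.025. Passing the adjustment was then harder by design, so these zeros do not show that the result is stable. The score of every listed peak, added after the data were seen, gave 14 members for promoters and 6 for gene bodies in TAM against EtOH, and 0 in both protein comparisons. With the replicate number as a block 0 members passed in any comparison, and the smallest p that 32 arrangements allow is 0.0625, so this fit could not pass.

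Counts of members called in at least 2 replicates depended on the threshold. For S100A8-Flag EtOH (9) they were 32 with every listed peak, 2 at −log10 q of at least 10, 2 with equal top peaks and 24 with at least 1 replicate. For S100A9-Flag EtOH (5) they were 33, 2 at the stricter threshold, 3 with the 5′ end only and 18 with at least 1 replicate, and 1 to 4 with a library left out (2 without replicate 2 and 1 without replicate 3). Equal top peaks gave 8 for S100A8-Flag TAM (35) and 4 for S100A9-Flag TAM (38). Leaving out a TAM library gave 25 to 29 and 29 to 33 members. The equal-peak setting keeps fewer peaks by construction. The median summit distance of 58.5 bp ranged from 50 to 64 bp with a library left out, and from 33 to 115 bp when each library was taken alone. Within 50 bp of the summit the NF-Y share fell to 6.82% and the AP-1 share to 0%.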
